A study of Mus musculus with 12 samples.

Results

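The genes described are 9 interferon-responsive members of the mouse tripartite motif (TRIM) family, Trim25, Trim26, Trim14, Trim21, Trim34a, Trim12a, Trim12c, Trim30a and Trim30d, of 53647 genes counted. They were chosen by symbol, and each symbol matched 1 Ensembl gene. RNA sequencing was done on 12 libraries in 6 groups of 2, each group with a preparation 1 and a preparation 2. The study asked how uniSTING, an engineered mimic of the adaptor STING delivered as mRNA, acts on type I interferon signalling.

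The groups are wild-type cells of 2 established mouse lines by label, DC2.4, an immortalized dendritic cell line, and 4T1, a breast cancer line. The first pair is uniSTING mRNA against Mock mRNA (which encodes EGFP) under the DC2.4 label, and the second is the same under the 4T1 label. The third pair is DC2.4 cells incubated for 24 h with extracellular vesicles of 4T1 cells that had been given uniSTING (EXOuniSTING) against vesicles of Mock-treated 4T1 cells (EXOmock). The labels give neither the time of the mRNA treatments nor separate cultures for the preparations, so the spread behind each p-value is that of 2 libraries a group and may be technical.

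TRIM proteins typically carry a RING finger that recruits ubiquitin-conjugating enzymes, B-box and coiled-coil regions that assemble the protein into dimers and higher-order forms, and a C-terminal domain that binds the target. Many TRIM genes are induced by interferon, whose receptor acts through the factor ISGF3 on response elements near the start of the gene. The induced proteins then add ubiquitin to sensors and adaptors of the antiviral pathway or to viral capsids, and can strengthen or end the response. Trim14 is a family member without a RING finger.

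Total counts were 14.1 to 26.0 M per library, and levels are counts scaled to a total of 1 M (CPM). The floor of detection, 3 counts, was 0.115 to 0.213 CPM. The markers went against the cell line labels in the mRNA-treated libraries. The summed level of 10 epithelial markers was 5175 to 5444 CPM in the 4 mRNA-treated libraries labelled DC2.4, 0.192 to 5.09 CPM in the 4 labelled 4T1 and 0.267 to 6.16 CPM in the 4 vesicle-treated ones. The summed level of 10 leukocyte markers was 8.53 to 15.4 CPM in the mRNA-treated libraries labelled DC2.4, 3926 to 4464 CPM in those labelled 4T1 and 4146 to 4298 CPM in the vesicle-treated ones. The leukocyte gene Ptprc (CD45) reached 0 to 19 counts and the myeloid gene Spi1 reached 1 to 5 in the mRNA-treated libraries labelled DC2.4, while the epithelial genes Epcam and Krt8 had 0 to 5 and 0 to 15 counts in those labelled 4T1. A cell line name below is therefore the name on the label. Each preparation 1 library also held transcripts of other tissues, 421 to 729 counts of the lung gene Sftpc and 171 to 2117 of the insulin gene Ins2, against 0 of both in each preparation 2 library, genes chosen after their values were seen.

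The promoters are shown because most of them hold a core of the interferon-stimulated response element (ISRE), GAAA, any 2 bases and GAAA. That of the most abundant gene holds no exact match. RefSeq promoters on GRCm38.p6, 250 bases before to 50 bases after the start, were found for 8 of the 9 genes; for Trim14 none was used here. This core was searched on both strands and lay in the promoters of 7 of these 8 genes, against 3.44% of 32851 promoters. The same letters with 3 bases between them lay in 2.75% of all promoters and TTCNNNGAA, the core of the gamma-activated site, in 8.30%, and in 0 of the 8 genes. Capitals mark matches of the core, which on the other strand read TTTC, any 2 bases and TTTC. A match is a run of letters, and binding was not measured. The search took exact letters only, so near matches, such as gttcagtttc and tttcgattcc in Trim25, were not counted.

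Shown are Trim21 at chr7:102565433-102565732 (minus strand), the close copies Trim12a at chr7:104315446-104315745 (minus strand) and Trim12c at chr7:104353300-104353599 (minus strand), the close copies Trim30a (the first of its 2 promoters) at chr7:104465144-104465443 (minus strand) and Trim30d at chr7:104507800-104508099 (minus strand), and Trim25 at chr11:88999153-88999452 (plus strand), which held no match.
Trim21: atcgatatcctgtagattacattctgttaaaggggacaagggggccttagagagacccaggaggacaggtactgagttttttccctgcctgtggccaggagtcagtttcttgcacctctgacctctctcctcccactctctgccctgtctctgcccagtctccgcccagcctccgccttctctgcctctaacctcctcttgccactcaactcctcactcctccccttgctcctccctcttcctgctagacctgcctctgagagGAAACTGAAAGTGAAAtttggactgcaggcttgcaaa
Trim12a: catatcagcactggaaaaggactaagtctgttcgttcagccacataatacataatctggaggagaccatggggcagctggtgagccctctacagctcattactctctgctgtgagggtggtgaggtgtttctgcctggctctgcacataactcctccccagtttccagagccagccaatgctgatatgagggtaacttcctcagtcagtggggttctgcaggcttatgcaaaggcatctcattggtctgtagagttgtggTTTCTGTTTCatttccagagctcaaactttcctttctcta
Trim12c: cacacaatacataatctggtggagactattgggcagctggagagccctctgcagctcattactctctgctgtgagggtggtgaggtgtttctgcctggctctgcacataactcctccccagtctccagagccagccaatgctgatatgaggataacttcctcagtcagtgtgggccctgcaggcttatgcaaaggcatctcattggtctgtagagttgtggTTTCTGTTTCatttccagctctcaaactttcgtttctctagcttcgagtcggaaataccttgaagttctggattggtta
Trim30a: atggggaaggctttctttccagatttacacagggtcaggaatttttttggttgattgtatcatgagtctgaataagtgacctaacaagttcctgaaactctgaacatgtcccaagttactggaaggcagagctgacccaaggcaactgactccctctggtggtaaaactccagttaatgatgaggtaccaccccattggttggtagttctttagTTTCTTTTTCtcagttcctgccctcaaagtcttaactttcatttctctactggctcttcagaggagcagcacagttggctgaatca
Trim30d: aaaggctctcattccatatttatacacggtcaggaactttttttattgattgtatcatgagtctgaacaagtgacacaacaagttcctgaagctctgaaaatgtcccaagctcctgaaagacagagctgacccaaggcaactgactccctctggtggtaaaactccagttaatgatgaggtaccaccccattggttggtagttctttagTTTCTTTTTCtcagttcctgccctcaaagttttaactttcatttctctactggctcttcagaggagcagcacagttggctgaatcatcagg
Trim25: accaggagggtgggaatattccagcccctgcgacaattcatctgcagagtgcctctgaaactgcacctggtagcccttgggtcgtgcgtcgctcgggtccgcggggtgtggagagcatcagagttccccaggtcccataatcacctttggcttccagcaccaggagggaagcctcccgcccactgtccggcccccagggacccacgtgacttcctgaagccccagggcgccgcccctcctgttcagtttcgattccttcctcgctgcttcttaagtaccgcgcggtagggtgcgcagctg
In Trim21 a pair of overlapping matches began 13 and 19 bases after the start. The matches of Trim12a and Trim12c were the same letters, 10 bases after and 29 bases before their starts, and these promoters were identical at 94.6% of 261 aligned positions. The promoters of Trim30a and Trim30d were identical at 93.9% of 294 aligned positions and shared their match, 36 and 41 bases before the start. Trim26 held a pair of overlapping matches farther away, at 160 and 154 bases before its start, and Trim34a held 1 match 10 bases after its start.

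Trim25 was by far the most abundant of the 9 genes. Per kb of exon, Trim25 averaged 20.7 ± 0.374 CPM per kb in uniSTING labelled DC2.4 and 18.7 ± 0.556 in Mock labelled DC2.4 (SD, n = 2 each, as throughout). It averaged 37.2 ± 0.191 in uniSTING and 37.0 ± 0.248 in Mock labelled 4T1, and 44.3 ± 0.345 in EXOuniSTING and 41.1 ± 0.752 in EXOmock. In each library Trim25 made up 60.6 to 72.4% of the summed CPM per kb of the 9 genes. Trim26 came next at 5.49 to 7.82 CPM per kb over the 6 group means. Trim14, Trim21 and Trim12c lay between 1.39 and 2.95 CPM per kb, Trim34a between 0.290 and 0.946, Trim30a between 0.176 and 2.53, Trim12a between 0.005 and 1.29, and Trim30d at or below 0.265.

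**Figure D1:**
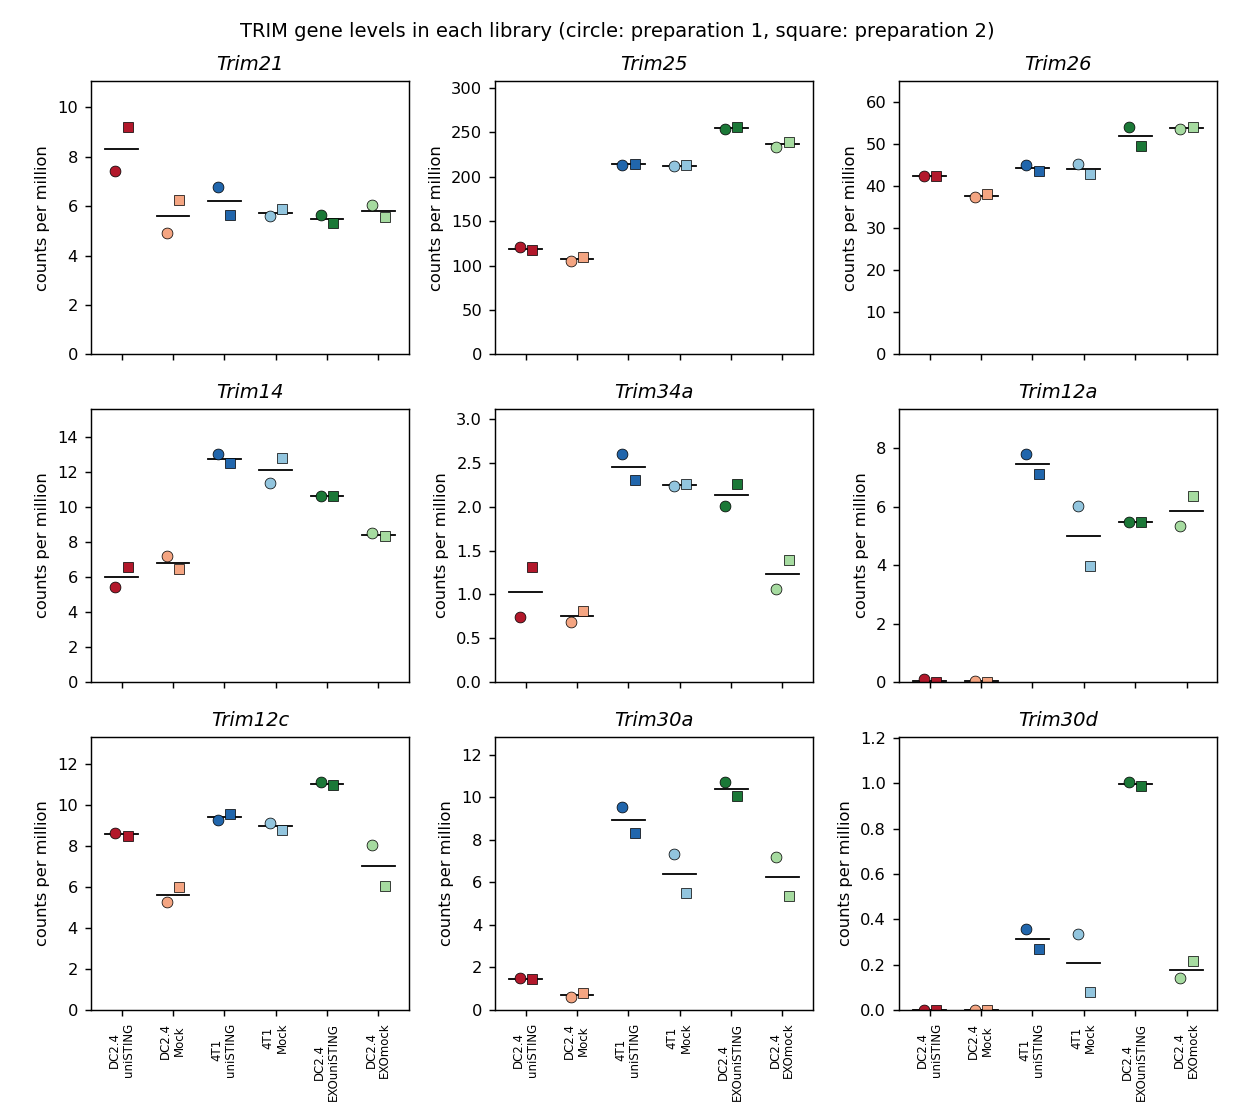
Level of each TRIM gene in CPM (vertical axes, from 0) in the 12 libraries, grouped by label and treatment on the horizontal axis. Circles are preparation 1, squares preparation 2, and each line is the mean of 2 libraries. Trim12a, Trim30a and Trim30d are close to the axis in the libraries labelled DC2.4 that were given mRNA, and Trim30d stands out in EXOuniSTING at 0.99 and 1.00 CPM.

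The order of the 6 groups differed between genes. For Trim25, EXOuniSTING was highest, followed by EXOmock, then by uniSTING and Mock labelled 4T1, which overlapped (213 and 215 CPM against 212 and 214 CPM), and then by uniSTING and Mock labelled DC2.4. For Trim30a, EXOuniSTING at 10.7 and 10.1 CPM was followed by uniSTING labelled 4T1 at 9.57 and 8.32 CPM. Mock labelled 4T1 (7.33 and 5.51 CPM) and EXOmock (7.18 and 5.35 CPM) overlapped below these, and uniSTING (1.49 and 1.44 CPM) and Mock (0.63 and 0.82 CPM) labelled DC2.4 came last. Trim14 was highest in uniSTING and Mock labelled 4T1, which overlapped (13.0 and 12.6 CPM against 11.4 and 12.9 CPM), and lowest in uniSTING and Mock labelled DC2.4. Trim21 stayed between 4.91 and 6.77 CPM in 10 libraries, and the other 2, uniSTING labelled DC2.4, were at 7.43 and 9.21 CPM.

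Without uniSTING, the 2 Mock groups held these genes at different levels. Of the 7 genes with more than 3 counts in both groups, 6 were higher in Mock labelled 4T1 than in Mock labelled DC2.4 by edgeR's quasi-likelihood test (adjusted p under 0.05), and 40.5% of the 14863 genes tested were higher by the same rule. Trim12a, a mouse gene related to the retroviral restriction factor Trim5, had 108 and 100 counts in Mock labelled 4T1, against 1 and 0 counts in Mock labelled DC2.4, a ratio of 191 (exact counting interval 33.9 to 7575). Trim30d had 6 and 2 counts in Mock labelled 4T1 and 0 in both libraries of Mock labelled DC2.4, at least 2.45-fold higher against a floor of 3 counts over the group. Its call was lost without Mock labelled 4T1 of preparation 1 (adjusted p = 0.0706) and without Mock labelled DC2.4 of preparation 2 (adjusted p = 0.0538).

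Trim30a, which in mouse cells is known to restrain NF-kB signalling through TAB2 and TAB3 and to target STING for degradation, averaged 6.42 ± 1.28 CPM in Mock labelled 4T1 and 0.723 ± 0.133 CPM in Mock labelled DC2.4 (log2 fold change 3.04, SE 0.24, edgeR adjusted p = 1.68e-08). Trim34a was 1.49 higher on the log2 scale, Trim25 0.91, Trim14 0.76 and Trim12c 0.59 (edgeR adjusted p = 0.000527, 5.19e-13, 2.98e-05 and 0.000925 in that order). Trim26 was higher by 0.14 (adjusted p = 0.0173), a call lost with DESeq2 (adjusted p = 0.0858), with upper-quartile factors (log2 0.10, adjusted p = 0.1) and without Mock labelled DC2.4 of preparation 1 (adjusted p = 0.0726). Trim21 did not pass, at -0.04 (SE 0.16, adjusted p = 0.807). The groups differ in their marker genes as given above, and fewer cells of a type and less RNA per cell cannot be told apart in these bulk samples.

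Under the DC2.4 label, uniSTING mRNA was accompanied by higher levels of 5 of the 7 genes with enough counts. Trim30a, Trim12c, Trim21, Trim26 and Trim25 rose, and Trim34a and Trim14 did not pass. The edgeR test called 20.8% of all 14863 genes higher and 20.9% lower. The median log2 fold change of the 7 genes was 0.49, against 0.01 over the 13628 genes with more than 3 counts in each group. It was 0.19 without uniSTING of preparation 2, and 0.38 to 0.62 without each of the other 3 libraries. No gene of the 7 fell, by edgeR, DESeq2 or limma-voom, or at an unadjusted p under 0.05 (0 by each).

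Trim25, the ligase that attaches lysine 63-linked ubiquitin to the RNA sensor RIG-I, had 120.5 and 117 CPM in uniSTING, against 105 and 109.7 CPM in Mock. Both uniSTING libraries lay above both Mock libraries, by a small margin. The log2 fold change was 0.16 (SE 0.03, edgeR adjusted p = 0.000718), and it stayed called without each library in turn. Within preparations 1 and 2 the log2 ratio was 0.20 and 0.10. Trim26, a ligase reported to act on IRF3, had 42.4 and 42.3 CPM in uniSTING, against 37.3 and 38.2 CPM in Mock. These libraries did not overlap either (log2 fold change 0.18, SE 0.05, adjusted p = 0.00875), but the call was lost with DESeq2 (adjusted p = 0.0661) and without Mock of preparation 1 (adjusted p = 0.0544). Within preparations its log2 ratio was 0.19 and 0.15. Trim14, an adaptor that joins the mitochondrial MAVS complex, had 5.47 and 6.58 CPM in uniSTING, against 7.20 and 6.49 CPM in Mock. The groups overlapped, and the log2 fold change was -0.15 (SE 0.13, adjusted p = 0.398).

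Trim21, a cytosolic antibody receptor that sends antibody-coated virus to the proteasome, had 7.43 and 9.21 CPM in uniSTING, against 4.91 and 6.26 CPM in Mock. Both uniSTING libraries were higher than both Mock libraries, with a spread inside each group of more than 1 CPM. The log2 fold change was 0.59 (SE 0.16, edgeR adjusted p = 0.00713). It was 0.44 without Mock of preparation 1 (adjusted p = 0.0819) and 0.43 without uniSTING of preparation 2 (adjusted p = 0.108). Within preparations the log2 ratio was 0.60 and 0.56.

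Among the genes of the chromosome 7 cluster, Trim12c had 8.65 and 8.50 CPM in uniSTING, against 5.26 and 5.99 CPM in Mock. The groups did not overlap. Trim12c, a mouse gene reported to work with TRAF6 in interferon and NF-kB signalling, rose by 0.62 on the log2 scale (SE 0.13, edgeR adjusted p = 0.00178), also without each library in turn, and by 0.72 and 0.50 within preparations. Trim30a had 1.49 and 1.44 CPM in uniSTING (28 and 36 counts), against 0.63 and 0.82 CPM in Mock (11 and 18 counts). It showed the largest fold change of the 7 genes, at 1.01 (SE 0.29, adjusted p = 0.0115), from the lowest level among those called. The call was lost with limma-voom (adjusted p = 0.0656) and without Mock of preparation 1 (log2 0.85, adjusted p = 0.0802), and within preparations the log2 ratio was 1.24 and 0.81.

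Trim34a, whose human counterpart acts with TRIM5 on retroviral capsids, had 0.74 and 1.32 CPM in uniSTING, against 0.69 and 0.82 CPM in Mock (log2 fold change 0.49, SE 0.34, edgeR adjusted p = 0.278). The groups overlapped. Trim12a had 2 counts in uniSTING and 1 in Mock, summed over the group. Trim30d had 0 counts in these 4 libraries, which allows up to 0.120 to 0.171 CPM per library. A change of Trim12a or Trim30d was not detectable at this depth. Without Mock of preparation 1, 2 of the 7 genes were called, Trim12c and Trim25.

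**Figure D2:**
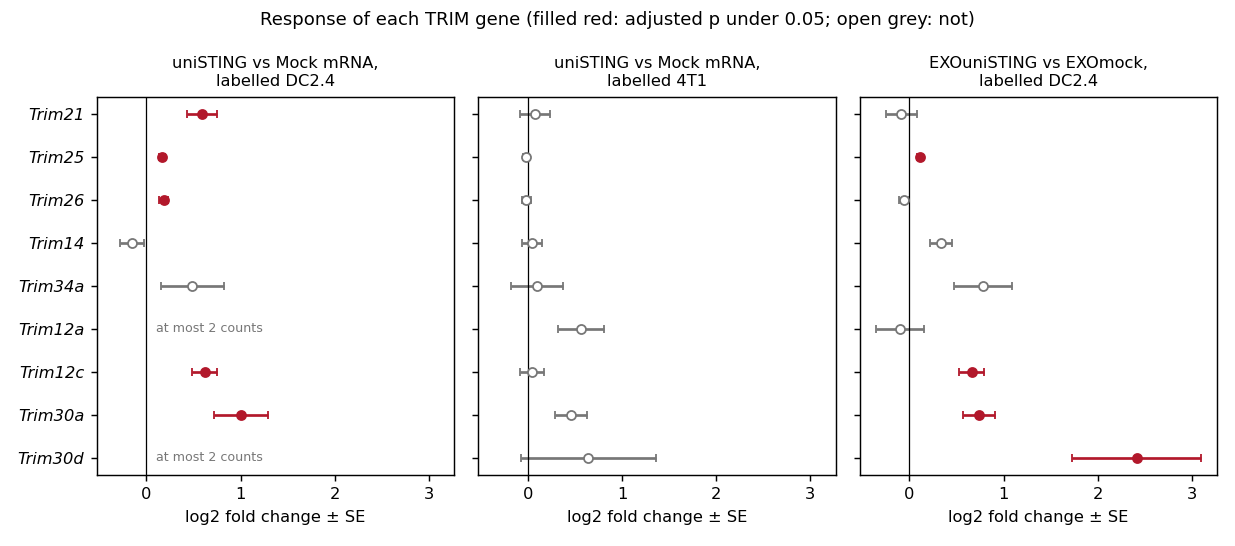
Log2 fold change of each TRIM gene (horizontal axis, bars are the standard error of the edgeR fit) in the 3 comparisons, one gene per row. Filled red points passed an adjusted p of 0.05 and open grey ones did not; "at most 2 counts" marks a gene without enough counts for a value. Trim30a lies to the right of 0 in all 3 panels, at 1.01, 0.46 and 0.74, and passed in the first and the third. Trim30d in the third panel passed the filter on low counts only through EXOuniSTING, so its filled point is no support.

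Under the 4T1 label, none of the 9 TRIM genes described passed the main edgeR test, which had no preparation block. With the block 2 passed, Trim30a and Trim12a, as given below. Of the 9 genes, 0 were called higher or lower by edgeR, while 12.6% of all genes were called higher and 15.7% lower. At an unadjusted p under 0.05, 2 genes were higher and 0 lower, DESeq2 called 0 and limma-voom called 2 higher. The median log2 fold change of the 8 genes other than Trim30d was 0.06, against -0.01 over the 13701 genes with more than 3 counts in each group. In 4 of the 9 genes both uniSTING libraries lay above both Mock libraries, an arrangement that 33.9% of all genes showed.

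Trim30a had 9.57 and 8.32 CPM in uniSTING, against 7.33 and 5.51 CPM in Mock. The groups did not overlap, and preparation 1 was the higher in both. The log2 fold change was 0.46 (SE 0.17, edgeR adjusted p = 0.0545), and within preparations it was 0.39 and 0.59. Trim12a had 7.79 and 7.12 CPM in uniSTING, against 6.04 and 3.97 CPM in Mock. It did not overlap either, with Mock of preparation 2 the lowest library (log2 fold change 0.56, SE 0.24, adjusted p = 0.105). With the preparation number as a block, both genes passed, Trim30a at 0.46 (adjusted p = 0.0208) and Trim12a at 0.57 (adjusted p = 0.0426). With a library left out, each passed in 1 of 4 cases, without Mock of preparation 1 (0.66, adjusted p = 0.0291, for Trim30a and 0.88, adjusted p = 0.043, for Trim12a). Without Mock of preparation 2 the value of Trim30a was 0.27 (adjusted p = 0.391) and that of Trim12a 0.28 (adjusted p = 0.534). Without uniSTING of preparation 1 or 2, Trim30a was at 0.37 and 0.56 (adjusted p = 0.247 and 0.0781) and Trim12a at 0.51 and 0.62 (adjusted p = 0.28 and 0.190). Over the alternatives that kept all libraries, the adjusted p was 0.0208 to 0.159 for Trim30a and 0.0194 to 0.148 for Trim12a.

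The values of the other genes lay near 0. Trim25 had 213 and 215 CPM in uniSTING, against 212 and 214 CPM in Mock, with overlapping groups and a log2 fold change of -0.02 (SE 0.03, edgeR adjusted p = 0.659). Trim26 was at -0.01 (SE 0.05), Trim14 at 0.04 (SE 0.11), Trim21 at 0.07 (SE 0.16), Trim12c at 0.04 (SE 0.12) and Trim34a at 0.09 (SE 0.28). Trim30d had 7 and 7 counts in uniSTING, against 6 and 2 counts in Mock, a ratio of 1.65 (exact counting interval 0.647 to 4.55).

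In the vesicle-treated cells, EXOuniSTING was accompanied by higher Trim12c, Trim30a and Trim25. Trim30d passed the filter on low counts only through EXOuniSTING and is counted apart, which leaves 3 of 8 genes called higher, against 7.96% of all genes called higher and 8.14% lower. The median log2 fold change of the 8 genes was 0.22, against 0.00 over the 13612 genes with more than 3 counts in each group. DESeq2 and limma-voom also called 3 of the 8 higher, and 0 fell by edgeR, DESeq2, limma-voom or at an unadjusted p under 0.05.

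Trim25 had 254 and 257 CPM in EXOuniSTING, against 233 and 239 CPM in EXOmock. The groups did not overlap (log2 fold change 0.11, SE 0.03, edgeR adjusted p = 0.015). The call was lost without EXOmock of preparation 1 (0.09, adjusted p = 0.117) and without EXOuniSTING of preparation 2 (0.10, adjusted p = 0.0946). Trim14 had 10.7 and 10.6 CPM in EXOuniSTING, against 8.54 and 8.34 CPM in EXOmock. Its libraries did not overlap, yet its log2 fold change of 0.34 did not pass (SE 0.12, adjusted p = 0.0754). Trim26 (-0.06, SE 0.05) and Trim21 (-0.08, SE 0.17) did not pass, at 54.1 and 49.6 CPM in EXOuniSTING against 53.5 and 54.0 CPM in EXOmock for Trim26.

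Trim12c had 11.1 and 11.0 CPM in EXOuniSTING, against 8.04 and 6.04 CPM in EXOmock. It was higher in both EXOuniSTING libraries (log2 fold change 0.66, SE 0.13, edgeR adjusted p = 0.00417). Without EXOmock of preparation 2, the lowest library, the value was 0.46 (adjusted p = 0.0621). Trim12a, its neighbour, had 5.49 and 5.46 CPM in EXOuniSTING, against 5.33 and 6.36 CPM in EXOmock, with overlapping groups (log2 fold change -0.10, SE 0.25, adjusted p = 0.860). Trim34a had 2.01 and 2.26 CPM in EXOuniSTING, against 1.07 and 1.39 CPM in EXOmock. Its groups did not overlap, but the value of 0.79 had an SE of 0.31 and did not pass (adjusted p = 0.104).

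Trim30a had 10.7 and 10.1 CPM in EXOuniSTING, against 7.18 and 5.35 CPM in EXOmock. Both EXOuniSTING libraries were higher (log2 fold change 0.74, SE 0.17, edgeR adjusted p = 0.0102). The call was lost without EXOmock of preparation 2 (0.53, adjusted p = 0.124) and without EXOuniSTING of preparation 1 (0.70, adjusted p = 0.056). Trim30d, the closest copy of Trim30a here, had 15 and 21 counts in EXOuniSTING, against 2 and 4 counts in EXOmock, a ratio of 5.44 (exact counting interval 2.27 to 15.8). At 1.00 and 0.99 CPM the EXOuniSTING libraries were the highest of all 12. The edgeR log2 fold change of Trim30d was 2.41 (SE 0.69, adjusted p = 0.0335). That test is no support, since Trim30d passed the filter on low counts only through EXOuniSTING. Its call was lost without each of the 4 libraries in turn (log2 fold change 2.19 to 2.76). Without EXOmock of preparation 2, 1 of the other 8 genes was called, Trim25, and without any other of the 4 libraries 2 were.

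Differences between the responses were tested directly. Between mRNA labelled DC2.4 and mRNA labelled 4T1, 3 of 7 genes differed, with a larger response under the DC2.4 label, and 31.1% of all genes differed in either direction. They were Trim12c (0.58, SE 0.18, edgeR adjusted p = 0.0276), Trim25 (0.18, SE 0.04, adjusted p = 0.0037) and Trim26 (0.20, SE 0.07, adjusted p = 0.0432). With the preparation block Trim26 did not pass (0.20, adjusted p = 0.0604). Trim12c did not pass with Trim12a added to it (0.37, adjusted p = 0.0785). Between mRNA labelled DC2.4 and vesicles, 3 of 7 differed, against 30.6% of all genes, Trim21 (0.68) and Trim26 (0.24) with the larger value for mRNA and Trim14 (-0.49) with the larger value for vesicles. Trim14 did not pass with the block (-0.48, adjusted p = 0.063). Between vesicles and mRNA labelled 4T1, 2 of the 8 genes other than Trim30d differed, against 28.0% of all genes, Trim12c (0.62) and Trim25 (0.13). With DESeq2, 2 of these 8 differences passed, those of Trim25. These shares are near the background. Trim30a did not differ past the threshold in any of the 3 tests (0.55, SE 0.33, for DC2.4 mRNA minus 4T1 mRNA; 0.27, SE 0.33, for DC2.4 mRNA minus vesicles; 0.28, SE 0.24, for vesicles minus 4T1 mRNA).

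Of the 9 genes, 5 sit in 1 cluster. On GRCm39 chromosome 7, 11 Trim genes span 317 kb, from Trim6 on, among them Trim34a (103893664 to 103911441, plus strand), Trim12a (103949101 to 103964673), Trim12c (103987961 to 104002569), Trim30a (104058232 to 104114400) and Trim30d (104119221 to 104157056), the last 4 on the minus strand. Trim21 (102207128 to 102214693) lies 1653 kb away on the same chromosome. The genes elsewhere are Trim14 on chromosome 4 (46493781 to 46536141), Trim25 on chromosome 11 (88890202 to 88911119) and Trim26 on chromosome 17 (37148026 to 37170290).

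**Figure D3:**
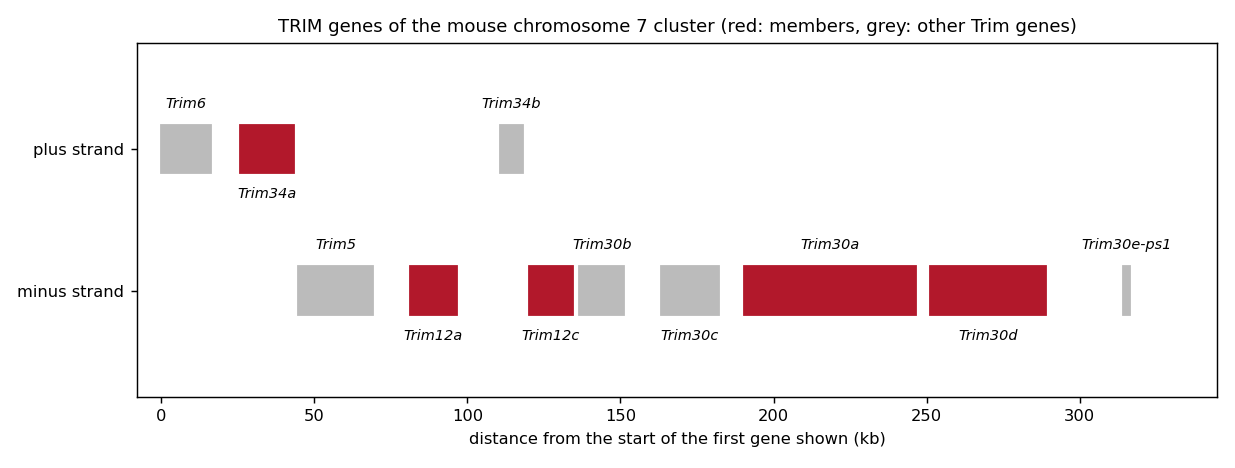
Trim genes of the mouse chromosome 7 cluster by distance from the start of the first gene (horizontal axis, kb), on the plus and minus strands (vertical axis). Red boxes are the genes described and grey boxes other Trim genes of the cluster. The 5 red genes lie among 6 others within 317 kb.

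Neighbours in the cluster did not share 1 pattern. Trim6 had 109 summed counts in uniSTING and 56 in Mock labelled DC2.4 and 0 in the other 4 groups. Trim34b had 94 counts in uniSTING and 39 in Mock labelled DC2.4, against 3 to 9 counts in each other group. Trim12a, Trim30a and Trim5 were instead lowest under the DC2.4 label with mRNA, with Trim5 at 1 count in uniSTING and 0 in Mock there and 12 to 40 counts in the other groups. Trim30b and Trim30c had at most 6 counts in any group.

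Close copies limit these values, since uniquely mapped reads were counted. Of the distinct 50-base stretches of each gene's transcripts, 59.7% were shared with another gene for Trim34a (39.8% with Trim34b), 33.7% for Trim12c (24.2% with Trim5), 10.5% for Trim12a, 7.49% for Trim30d and 5.98% for Trim30a. The coding sequences of Trim30a and Trim30d were 90.3% identical. Trim14 shared 33.9%, mostly with Nans, which overlaps 1356 bases of its exons on the opposite strand, and counting used no strand. For Trim21, Trim25 and Trim26 the share was at most 1.15%. With Trim12a and Trim12c summed, the log2 fold change was 0.62 in uniSTING labelled DC2.4, 0.25 in uniSTING labelled 4T1 and 0.36 in EXOuniSTING (edgeR adjusted p = 0.000555, 0.0643 and 0.0263). With Trim30a and Trim30d summed, it was 1.01, 0.46 and 0.83 (adjusted p = 0.0125, 0.0518 and 0.00493). The sums leave out Trim5, with which Trim12a also shared most (5.04%), and Trim34b, so they do not cover all shared reads. The coding sequences of Trim12a and Trim12c, 891 and 1491 bases long, were 57.8% identical.

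Of 56 other TRIM genes, 33 were tested. Under the DC2.4 label 3 rose (9.09%) and 11 fell (33.3%), against 20.8% and 20.9% of all genes. Of the 31 with more than 3 counts in each group, 2 rose and 11 fell, with a median log2 fold change of -0.12. The remaining rise was of a gene with at most 3 counts in a group and is no support. Trim8, Trim28, a co-repressor also called KAP1, and Trim33 fell, Trim28 to 365 ± 3.15 CPM in uniSTING against 456 ± 6.51 CPM in Mock (-0.30, SE 0.03, edgeR adjusted p = 4.57e-07). Under the 4T1 label 3 rose, among them Mid1 (0.73) and Trim23 (0.26), and 4 fell, among them Trim8 (-0.17). These were 9.09% and 12.1% of the 33, against 12.6% and 15.7% of all genes. In EXOuniSTING 2 rose and 2 fell (6.06% each), against 7.96% and 8.14% of all genes. In both comparisons the shares are near the background. Pml, the scaffold gene of nuclear bodies, had 29.7 ± 0.417 CPM in EXOuniSTING and 21.1 ± 1.16 CPM in EXOmock (0.50, adjusted p = 0.000151), while Trim44 (-0.15) and Trim56 (-0.27) fell.

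The partners of TRIM ligases were 25 genes for ubiquitin enzymes, RNA sensors and adaptors. Under the DC2.4 label 7 rose (28.0%) and 10 fell (40.0%), against 20.8% and 20.9% of all genes. With uniSTING mRNA under the 4T1 label, 5 rose (20%) and 3 fell (12%), against 12.6% and 15.7% of all genes. In EXOuniSTING 4 rose (16.0%) and 3 fell (12%), against 7.96% and 8.14% of all genes. No list was tested against all genes. The median log2 fold changes were -0.10, -0.04 and 0.03. Under the DC2.4 label Ube2n, part of the enzyme pair that makes lysine 63-linked chains, had 210.0 ± 0.388 CPM in uniSTING and 172 ± 3.18 CPM in Mock (0.31, edgeR adjusted p = 1.04e-06). Ube2d3 rose by 0.20 and the segregase gene Vcp fell by 0.42. Under the 4T1 label Uba1 (0.10), Usp14 (0.14) and Ikbkg, which encodes NEMO (0.23), rose. In EXOuniSTING Ddx58, which encodes RIG-I, the target of Trim25, had 17.1 ± 1.31 CPM, against 7.15 ± 0.856 CPM in EXOmock (1.25, adjusted p = 1.32e-05). Uba7, the activating enzyme of ISG15, rose by 0.58 and the RIG-I-like receptor gene Dhx58 by 0.56.

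In the interferon relay, Irf7, Isg15 and Irf9 rose under the DC2.4 label and in EXOuniSTING. Of 12 genes from receptor to feedback, 6 rose (50%) and 3 fell (25.0%) under the DC2.4 label (median 0.44), against 20.8% and 20.9% of all genes. In uniSTING labelled 4T1, 2 rose (16.7%) and 4 fell (33.3%), against 12.6% and 15.7% of all genes (median 0.00). In EXOuniSTING 5 rose (41.7%) and 0 fell, against 7.96% and 8.14% of all genes (median 0.24). Irf7, a transcription factor that amplifies the response, had 8.80 ± 1.22 CPM in uniSTING and 2.00 ± 0.569 CPM in Mock labelled DC2.4 (2.12, edgeR adjusted p = 2.63e-07), and 20.3 ± 0.309 CPM in EXOuniSTING and 4.91 ± 0.293 CPM in EXOmock (2.05, adjusted p = 1.19e-06). Isg15, the ubiquitin-like modifier, rose by 1.27 and 1.89 in these comparisons, and Irf9, the DNA-binding subunit of ISGF3, by 1.14 and 0.78. Under the 4T1 label the receptor genes Ifnar1 (-0.32) and Ifnar2 (-0.27) and the kinase gene Tyk2 (-0.27) fell. The 2 relay genes that rose there were not among the 3 named by smallest adjusted p. Values of the 12 genes ran from -0.32 to 1.07.

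**Figure D4:**
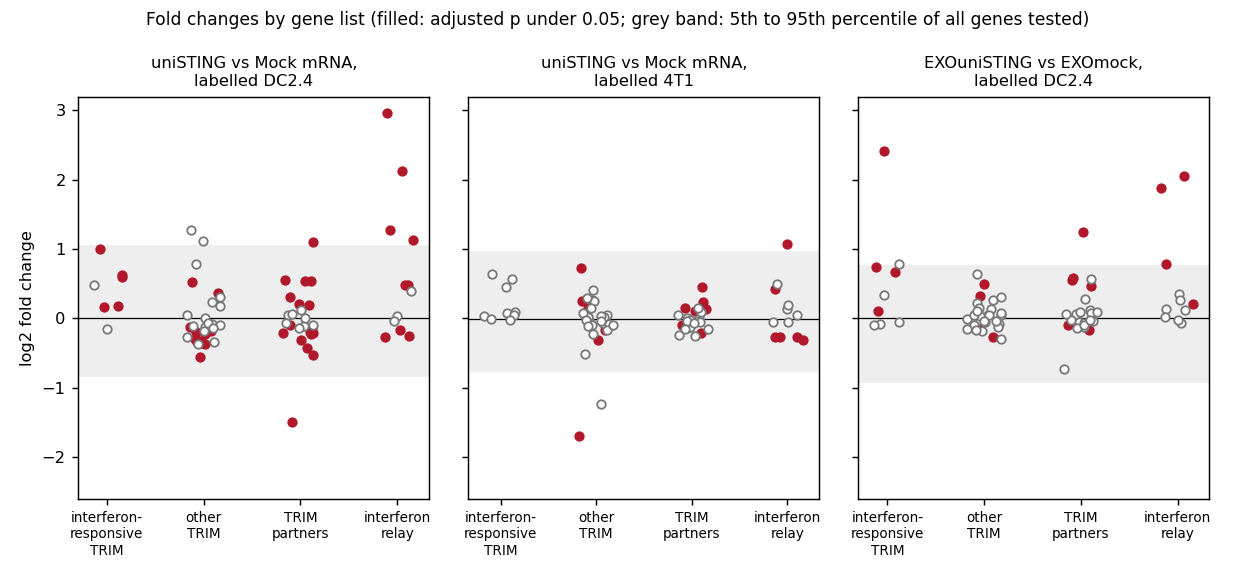
Log2 fold change (vertical axis) of the genes in 4 lists (horizontal axis) in the 3 comparisons. Each point is 1 gene with more than 3 counts in each group. The highest interferon relay gene of the third panel, at 3.61, lies above the top of the axis and is not drawn. Filled points passed an adjusted p of 0.05, and the grey band holds the 5th to 95th percentile of all 14863 genes tested. The interferon relay reaches higher than the interferon-responsive TRIM genes in the first panel, up to 2.97, with Irf7 at 2.12. No TRIM gene of the first list passed in the middle panel, by the test without a preparation block.

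The genes most like each TRIM gene over the 6 group means were found by the root-mean-square difference of centred log2(CPM + 0.5) among 9920 genes. Trim25 was closest to Dynlrb1 (0.033) and Chchd3 (0.040), Trim26 to Ssu72 (0.030) and Vhl (0.032), and Trim21 to Mrps36 (0.035) and Cenpw (0.040). Trim14 was closest to Sh3bp1 (0.055) and Gnb5 (0.062), and Trim34a to Mndal (0.078) and Zfp473 (0.103). Trim12c was closest to Zfp324 (0.094) and Psme2 (0.136), and Trim12a to Cysltr1 (0.136) and Gla (0.148). Trim30a had no gene closer than Napb (0.213) and Hsd11b1 (0.215), and Trim30d none closer than Ccdc122 (0.231) and Tbc1d7 (0.252). The points share their libraries, and the measure is over 6 means.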

How the data were processed

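RNA was sequenced from 12 libraries in 6 groups of 2. Per the labels' protocols, 1.0 µg of total RNA went into each library. The authors deposited raw counts per gene. Alignment was with HISAT2 (version not given in the sources used here) to GRCm39, per the submitters' processing notes. FeatureCounts (Subread 2.0.1) counted paired-end, uniquely mapped reads over the exons of Ensembl release 103 with no strand option, per the file headers. Genes with close copies are therefore counted low, and reads over exons that overlap an antisense gene cannot be told apart by strand.

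Counts were tested with edgeR 4.0.16 (R 4.3.3) on 12 libraries, with group means, filterByExpr (14863 genes kept), TMM, the quasi-likelihood F test, Benjamini-Hochberg adjustment and a threshold of 0.05, and the procedure was tested on simulated data. CPM used the deposited totals, and intervals of count ratios and the floor of 3 counts cover counting error only. Alternatives were limma-voom (limma 3.58.1), DESeq2 1.42.0, its size factors within edgeR, upper-quartile factors, no filter, 1 CPM in 2 libraries, only the libraries compared, a block, a length correction, summed copies and leaving out each library. The preparation numbers were taken to pair the libraries in the block and in the ratios within preparations. The main test used no pairing. Over all genes tested, deviations of libraries with the same number from their group means correlated in each pair of groups (r 0.31 to 0.51). Over genes above 5 CPM, r was -0.01 to 0.34. It was -0.01 to 0.04 between the mRNA-treated groups labelled DC2.4 and the other groups, so pairing across those groups is not established. The source of the pairing is the preparation number in the labels.

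All 9 genes are named. From each list of related genes (other TRIM genes, partners, interferon relay), the 3 genes with the smallest adjusted p among those called are named where the higher group averaged 5 CPM or more, and per TRIM gene the 2 genes nearest in pattern. The genes and lists were chosen with earlier results of these data known. Promoters came from RefSeq (GRCm38.p6), and shared 50-base stretches and coding sequences from GENCODE transcripts of the same assembly version, GRCm38, whose coordinates are not those of the counts. Protein sequences were not used here. Figures were drawn with matplotlib 3.10.9 in Python 3.11.15.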

Additional observations from a re-analysis of the deposited data

Results flagged for a closer look

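In all, 8 differences between responses passed the test of the difference itself, beside a share of all genes of 28.0 to 31.1%. Under mRNA labelled DC2.4 minus mRNA labelled 4T1, Trim25 differed by 0.18 (edgeR adjusted p = 0.0037) and stayed called without each of the 8 libraries in turn. Trim26 differed by 0.20 (adjusted p = 0.0432), which did not pass without each of the 8 libraries (adjusted p = 0.0519 to 0.144) or with the preparation block (0.20, adjusted p = 0.0604). Trim12c differed by 0.58 (adjusted p = 0.0276), which passed without Mock labelled DC2.4 of preparation 2 and not without any of the other 7 (adjusted p = 0.0505 to 0.0988). It did not pass with DESeq2 (0.57, adjusted p = 0.104) or with Trim12a added to it (0.37, adjusted p = 0.0785). Trim26 also did not pass with DESeq2 (0.20, adjusted p = 0.185), and it passed in 2 of the 8 alternatives that kept all libraries.

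Under mRNA labelled DC2.4 minus vesicles, Trim14 differed by -0.49 (edgeR adjusted p = 0.0481). That call held only without uniSTING labelled DC2.4 of preparation 2 among the 8 libraries left out (adjusted p = 0.0283, and up to 0.179 for the others), and with the preparation block it was -0.48 (adjusted p = 0.063). Trim14 shares exon bases with Nans. With DESeq2 the differences from vesicles did not pass for Trim14 (adjusted p = 0.143), Trim21 (adjusted p = 0.128) or Trim26 (adjusted p = 0.126). Trim21 differed by 0.68 (adjusted p = 0.039), which passed without Mock of preparation 2 or uniSTING of preparation 1 labelled DC2.4 and not without any of the other 6 (up to 0.168). Trim26 differed by 0.24 (adjusted p = 0.018), which was lost without Mock labelled DC2.4 of preparation 1 (0.0584), EXOmock of preparation 2 (0.0676) or EXOuniSTING of preparation 2 (0.119).

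Under vesicles minus mRNA labelled 4T1, Trim25 differed by 0.13 (edgeR adjusted p = 0.0223), which was lost without Mock labelled 4T1 of preparation 2, uniSTING labelled 4T1 of preparation 1, EXOmock of preparation 1 or EXOuniSTING of preparation 2 (adjusted p = 0.0579 to 0.108). Trim12c differed by 0.62 (adjusted p = 0.0212), which was lost without Mock labelled 4T1 of preparation 1 (0.0557), uniSTING labelled 4T1 of preparation 1 (0.0585) or EXOmock of preparation 2 (0.108), and was 0.63 with DESeq2 (adjusted p = 0.0707) and 0.11 (adjusted p = 0.624) with Trim12a added to it. The markers of the cell types and the transcripts of other tissues in preparation 1 differ between these libraries, and their part in the differences was not tested.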

How the results depend on the processing

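The count of TRIM genes higher under the DC2.4 label was 4 to 5 under the alternatives that kept all libraries (5 as reported) and 2 to 5 with a library left out. Under the 4T1 label it was 0 as reported, 2 with limma-voom, with no filter, with only the libraries compared and with the preparation block, 1 with upper-quartile factors, and 0 to 2 with a library left out. In EXOuniSTING it was 1 to 2 with a library left out, Trim30d in none of them, against 3 without Trim30d, while all genes called numbered 1294 to 1532, against 2393. For mRNA labelled DC2.4 minus 4T1, the count of larger responses was 1 with DESeq2 and 1 to 2 with a library left out, against 3. For mRNA labelled DC2.4 minus vesicles, the count of larger responses was 0 with DESeq2 and with only the libraries compared and 0 to 2 with a library left out, and that of smaller ones was 0 with DESeq2, limma-voom, no filter, only the libraries compared and the preparation block and 0 to 1 with a library left out. For vesicles minus 4T1, the count of larger responses was 1 with DESeq2 and 0 to 2 with a library left out, and that of smaller ones 1 with only the libraries compared. One direction reversed: Trim12a in EXOuniSTING was 0.36 when summed with Trim12c, which holds more counts. A library left out leaves 1 in its group, which is assumed to vary like the others. The cause of the other changes was not tested. The block changed the calls of Trim30a and Trim12a under the 4T1 label and of Trim26 and Trim14 in the differences, and no other call of the 9 genes. Trim30d, and Trim12a in the mRNA-treated libraries labelled DC2.4, are limited by depth.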
